A study of Mus musculus with 6 samples.

Results

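Some microRNA (miRNA) hairpins are not genes of their own but lie inside a protein-coding gene and are read from the same strand. Of the 55 distinct sequences that the authors listed as changed, 5 that come from such hairpins are described here. Their 4 host genes are Clcn5 (miR-188-5p and miR-532-3p), Dvl2 (miR-324-5p), Rcl1 (miR-101b-3p) and Nol10 (miR-3066-5p). The 5 are not a count of all listed sequences that lie inside genes. They were picked by name and place from those 55, so all were already listed for a difference between these libraries. The count table held 1272 distinct sequences, of which 393 had enough tags to test. All 5 were among those tested. A tag is a sequenced read assigned to a mature miRNA.

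The cells were mouse renal tubular epithelial cells (mRTECs) of the C57BL/6 strain, a bought primary cell type of the kidney tubule. All of them first received TGF-β1, a growth factor under which such cells take on fibrotic traits, for 48 h, and then medium without it. In the co-cultured group (3 libraries) the mRTECs next shared their medium for 24 h with bone marrow mesenchymal stem cells (BM-MSCs) held in a Transwell insert, and in the control group (3 libraries) the insert held medium alone. The comparison asks which miRNAs of TGF-β1-treated mRTECs differ with BM-MSCs nearby. Nothing in the labels tells whether replicate libraries are of separate cultures, so p-values measure only the spread between libraries.

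A hairpin is cut from its host's transcript in the nucleus, often before the intron around it is spliced out, and Dicer then frees a 5p and a 3p arm. One arm is usually kept in an Argonaute protein and the other decays, and the kept arm represses mRNAs that pair with its seed, which is bases 2 to 8. Arms of one hairpin share their precursor, and hairpins of one intron can share their transcript, so their levels can be set at the transcript or after the cut. Among the hosts, Clcn5 encodes a chloride and proton exchanger of proximal tubule endosomes that is mutated in human Dent disease. Dvl2 relays Wnt signals in the cytoplasm, and Rcl1 and Nol10 act in the nucleolus in making ribosomes.

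The 5 mature sequences are shown because the seed, in capitals, decides what each can pair with, and all 5 seeds differ. They are as deposited and equal RefSeq's (GRCm38.p6).
miR-188-5p: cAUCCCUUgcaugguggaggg
miR-532-3p: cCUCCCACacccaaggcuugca
miR-324-5p: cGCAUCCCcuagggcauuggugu
miR-101b-3p: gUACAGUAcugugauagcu
miR-3066-5p: uUGGUUGCuguagauuaaguag
No other sequence in the count table had the seed of any of these 5, so no seed relatives were there to compare.

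On GRCm38 with GENCODE M21, which is not the authors' build, 4 of the 5 hairpins lay in introns. Mir532 (chrX:7248402-7248497, minus strand) and Mir188 (chrX:7247989-7248056, minus strand) were 345 bases apart in intron 3 of the 14 introns of transcript Clcn5-202. Mir101b (chr19:29135279-29135375, plus strand) lay in intron 8, the last of Rcl1-201, and Mir3066 (chr12:17355392-17355474, plus strand) in intron 4 of the 20 of Nol10-201. Mir324 (chr11:70012043-70012131, plus strand) lay instead in exon 16, the last exon of a Dvl2 transcript, inside its untranslated region, and the gene Acadvl overlaps it on the opposite strand. The hairpins of Mir532, Mir362 and Mir3066 are shown because their arms are compared below, with both mature arms in capitals. The hairpins are RefSeq's, and the 5p arm of Mir532 was marked by matching the deposited miR-532-5p sequence to it.
Mir532: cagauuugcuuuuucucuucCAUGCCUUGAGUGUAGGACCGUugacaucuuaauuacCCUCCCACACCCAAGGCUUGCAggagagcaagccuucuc
Mir362: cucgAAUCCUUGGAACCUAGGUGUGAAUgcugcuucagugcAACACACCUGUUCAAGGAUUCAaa
Mir3066: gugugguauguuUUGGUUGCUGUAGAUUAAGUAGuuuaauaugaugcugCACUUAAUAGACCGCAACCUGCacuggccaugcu

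Facts about the libraries bear on everything that follows. The libraries held 3740503 to 4038815 tags in the co-cultured group and 2873703 to 3029205 in the control group. The authors' tables name the groups the other way round: the mean headed MRTEC+MSC was, in 1089 of 1089 entries, that of the libraries labelled control. Directions here follow the sample labels, and every sign would turn round under the tables' naming. The authors report miR-146a-5p as raised in mRTECs by BM-MSCs, by sequencing and by RT-qPCR. Its deposited normalized values were 1, 1 and 1 in libraries labelled co-cultured, against 30, 28 and 27 in those labelled control. That is the direction of the tables' naming, not of the sample labels. Which naming is right was not tested, so co-cultured and control below mean only the libraries so labelled. Higher in co-cultured below may thus mean lower with BM-MSCs. All 5 miRNAs stand in the authors' down-regulated list and 0 in the up-regulated one, so down-regulated there means lower in the libraries labelled control. Co-cultured replicate 1 behaved as a mixture of co-cultured replicates 2 and 3, and control replicate 2 as a mixture of control replicates 1 and 3. Over sequences with at least 5 expected tags, 88.3% of the counts of co-cultured replicate 1 and 90.8% of those of control replicate 2 lay between the counts of the other libraries of their group, against 6.30% to 9.12% in the remaining 4 libraries. Around a scaled sum of the others, their counts scattered by 0.528 and 0.790 times counting noise, against 4.21 to 4.45 times in the remaining 4. Of the 429 sequences found in only 1 of co-cultured replicates 2 and 3, 416 were also in replicate 1, at a median 0.467 of that library's count, and of 357 such sequences 347 were in control replicate 2, at 0.529. In the remaining 4 libraries the share found was alike (94.4% to 97.5%), but the median ratio was 1.71 to 2.14. The cause was not tested. Each group thus held 2 separate libraries, so the 6-library p-values are too small, and each result is given with the 6 libraries and with the 4 separate ones.

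**Figure D1:**
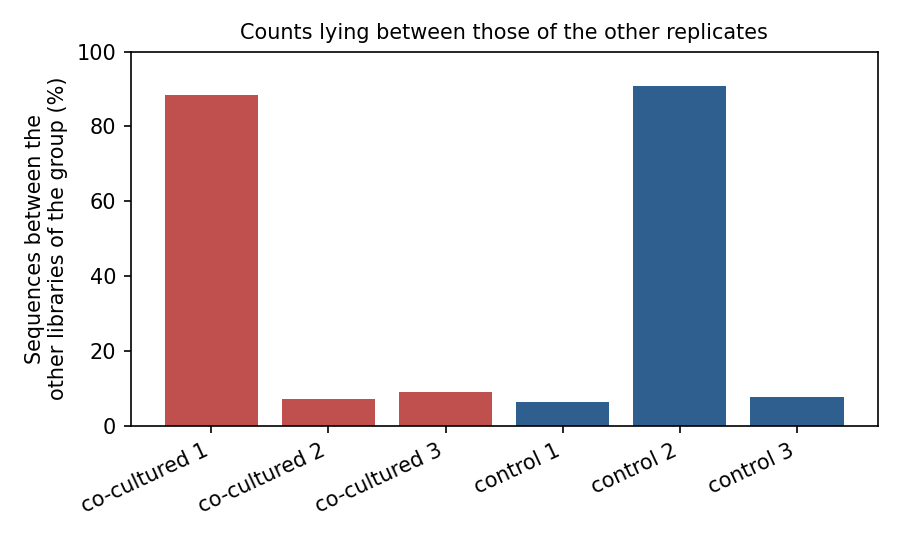
Share of sequences (percent, y axis) whose tag count in a library lay between its counts in the other libraries of the group, for each co-cultured (red) and control (blue) library on the x axis. Co-cultured replicate 1 (88.3%) and control replicate 2 (90.8%) stood apart from the other 4 libraries, which were at 6.30% to 9.12%.

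Markers of tubule cells were present, though unevenly. Of 11 listed markers of renal tubular epithelium, 10 were in the table and 9 had a tag, and their summed level was 18400 to 20200 CPM (the tag count scaled to a common TMM-adjusted library total) in co-cultured and 16300 to 18600 CPM in control libraries. Most of this was miR-10a-5p, miR-10b-5p and miR-30a-5p, which other cells also make, while miR-200a-3p was at 0 in every library. Within this list miR-30a-5p rose and miR-192-5p fell in the 6-library fit (edgeR, adjusted p under 0.05). miR-192-5p was at 286 to 312 CPM in co-cultured and 399 to 471 CPM in control libraries. Of 8 mesenchymal stromal markers, 7 were in the table and 6 had a tag. They summed to 382 to 397 CPM in co-cultured and 667 to 698 CPM in control libraries. Most of it was miR-143-3p, which fell in the 6-library fit (log2 difference -0.91). Other stromal markers were higher in the co-cultured libraries without passing the test, such as miR-199a-5p at 7.91 to 17.3 CPM in co-cultured and 3.08 to 6.38 CPM in control libraries. miR-199b-5p was at 0 everywhere, and of 6 blood cell markers only miR-150-5p was in the table, at no more than 0.494 CPM. With the 4 separate libraries edgeR called none of these markers. The part of these marker differences in the results below was not tested.

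All 5 miRNAs were higher in the co-cultured libraries. Their tags summed to 270, 272 and 248 in co-cultured replicates 1 to 3, against 24, 32 and 31 in control replicates 1 to 3. In each of the 5, every co-cultured library lay above every control library, which held for 21.4% of all tested sequences. By edgeR's quasi-likelihood test on the 6 libraries, 3 of the 5 rose (miR-532-3p, miR-324-5p and miR-101b-3p), and 9.41% of all tested sequences rose while 13.2% fell. The authors listed the 5 for a difference between these same libraries, so these counts are no independent evidence of it. miR-324-5p and miR-101b-3p, with no control tags, also passed the low-count filter only through the co-cultured libraries. With the 4 separate libraries, edgeR called 0 of the 5 at an adjusted p under 0.05 and DESeq2 also called 0, giving miR-101b-3p no adjusted p. Over all sequences, edgeR then called 0.254%, which was a single sequence of chromosome 1 that has no miRBase name, at an adjusted p of 0.0403 and lower in co-cultured libraries, described here after its value was seen. At an unadjusted p under 0.05, edgeR on the 4 libraries had 3 of the 5 higher, where 4.83% of all tested sequences were, and DESeq2 also had 3, where 5.09% of all were. The left-out libraries lay between the others of their group, so leaving them out could hardly move the fitted differences. The median of the 5 was 3.13 on the log2 scale with 6 libraries and 3.25 with 4, beside 0.01 and 0.03 for all sequences. With miR-324-5p and miR-101b-3p, which had no control tags, set at the lower bounds given below, the 6-library median was 2.42.

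**Figure D2:**
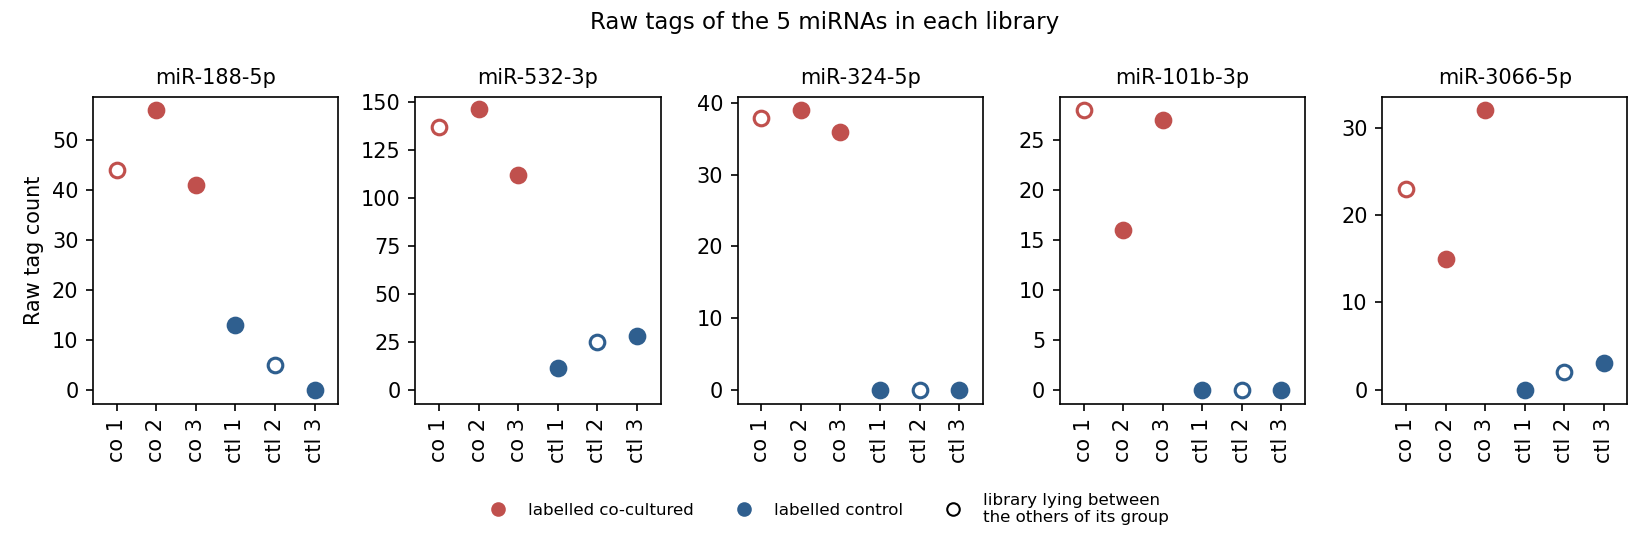
Raw tag counts (y axis, a scale of its own in each panel) of the 5 miRNAs in co-cultured replicates 1 to 3 (co, red) and control replicates 1 to 3 (ctl, blue). Open circles mark the libraries lying between the others of their group. Every co-cultured point is above every control point, and miR-324-5p and miR-101b-3p have 0 tags in all control libraries.

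Among the co-cultured libraries, the level order by mean was miR-532-3p (27.3 to 34.0 CPM), miR-188-5p (9.999 to 13.0 CPM), miR-324-5p (8.78 to 9.39 CPM), miR-101b-3p (3.72 to 6.92 CPM) and miR-3066-5p (3.49 to 7.80 CPM). The ranges of miR-101b-3p and miR-3066-5p overlapped, and their order turned round in the means of the separate libraries (5.15 and 5.65 CPM), while the ranges of the other neighbours did not overlap. A tag spans the whole mature miRNA, so no length correction was made. By mean CPM, these miRNAs ranked between 148 and 251 of the 733 sequences with a tag in a co-cultured library. In the control libraries miR-532-3p ranked 227, miR-188-5p 540 and miR-3066-5p 610 of 633, and the other two had no tag. In the deposited normalized values, rounded to whole numbers, 3 of the 5 never exceeded 5.

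miR-532-3p, the most abundant of the 5, is the minor arm of its hairpin. It had 137, 146 and 112 tags in co-cultured replicates 1 to 3, against 11, 25 and 28 in control replicates 1 to 3. Every co-cultured library was far above every control library, and replicate 1 of the co-cultured and replicate 2 of the control group lay inside the range of their groups. In the separate libraries this was 30.7 ± 4.71 CPM in co-cultured and 7.23 ± 4.999 CPM in control (SD, n = 2 each), a 4.24-fold ratio of means. The 6-library log2 difference was 2.02 (SE 0.401, adjusted p = 0.0172, edgeR), and with the 4 libraries it was 2.09 (SE 0.742, adjusted p = 0.327). Leaving out either in-between library alone ended the call, with an adjusted p of 0.0805 without co-cultured replicate 1 and 0.0749 without control replicate 2.

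The other arm, miR-532-5p, was among the most abundant sequences, at rank 17 in co-cultured and 18 in control libraries. It had 19820, 21321 and 20391 tags in co-cultured replicates 1 to 3, against 11985, 12502 and 12040 in control replicates 1 to 3. Scaled for depth the groups were close, at 4895, 4962 and 4973 CPM in co-cultured and 4026, 4520 and 4629 CPM in control libraries, without overlap. Its log2 difference was 0.17 (SE 0.0618, adjusted p = 0.101, edgeR) and 0.19 with 4 libraries (SE 0.105, adjusted p = 0.511), and it passed on 6 libraries with DESeq2 (adjusted p = 0.0272), with scaling by library totals only (0.0113) and in all 3 limma fits (0.0198 to 0.0285). The 3p arm took a larger share of the hairpin's tags in co-cultured libraries, at 0.686%, 0.680% and 0.546% in replicates 1 to 3, against 0.0917%, 0.200% and 0.232% in control replicates 1 to 3. The lowest co-cultured share (95% Wilson interval 0.454% to 0.657%) and the highest control share (0.161% to 0.335%) had intervals that did not meet. These intervals cover counting error only, not the spread between libraries. The authors listed miR-532-3p for a difference between these same libraries, so its larger share is no independent evidence.

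miR-188-5p, which represses Hdac9 and Rictor in mouse bone marrow stromal cells, comes from the neighbouring hairpin. It had 44, 56 and 41 tags in co-cultured replicates 1 to 3, against 13, 5 and 0 in control replicates 1 to 3. The co-cultured libraries were close together, whereas the control libraries ran down to 0. Levels were 11.5 ± 2.14 CPM in the separate co-cultured and 2.18 ± 3.09 CPM in the separate control libraries (SD, n = 2 each), so the control spread exceeded its mean. Its log2 difference of 2.42 (SE 1.03) did not pass with 6 libraries (adjusted p = 0.150, edgeR) or with 4 (2.33, SE 1.90, adjusted p = 0.727), and it passed on 6 libraries with DESeq2 (adjusted p = 0.0405) and with limma at a pseudocount of 5 (0.0340). It was 3.57 without control replicate 1 (adjusted p = 0.0630) and 1.83 without control replicate 3 (0.0699). Its partner arm miR-188-3p was not in the count table.

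The Clcn5 intron holds further hairpins, and the differences of their arms fell on both sides of 0. From Mir532, the first along the gene, to Mir500, the last, 5 hairpins spanned 10815 bases, with Mir362, Mir501 and Mir500 lying 6451, 7146 and 10723 bases beyond the start of Mir532. Of 12 arms on the list, miR-188-3p and the arms of miR-660 were not in the count table. The other 9 were, and 7 were tested. Of these 7, 6 had a log2 difference above 0 and 2 rose, miR-532-3p and miR-362-3p, with none lower by that test. These 2 are 28.6% of the 7, beside 9.41% of all tested sequences higher and 13.2% lower, and 201 of all 393 sequences had a log2 difference above 0. The median log2 difference of the 7 was 0.67 with 6 libraries and 0.78 with 4. The 7 include miR-188-5p and miR-532-3p, which the authors listed for a difference between these same libraries. Their part in these counts and medians is thus no independent evidence. With the 4 separate libraries, edgeR and DESeq2 each called 0 of the 7, while 1 arm by edgeR and 2 by DESeq2 were higher at an unadjusted p under 0.05, beside 4.83% of all tested sequences by edgeR and 5.09% by DESeq2.

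**Figure D3:**
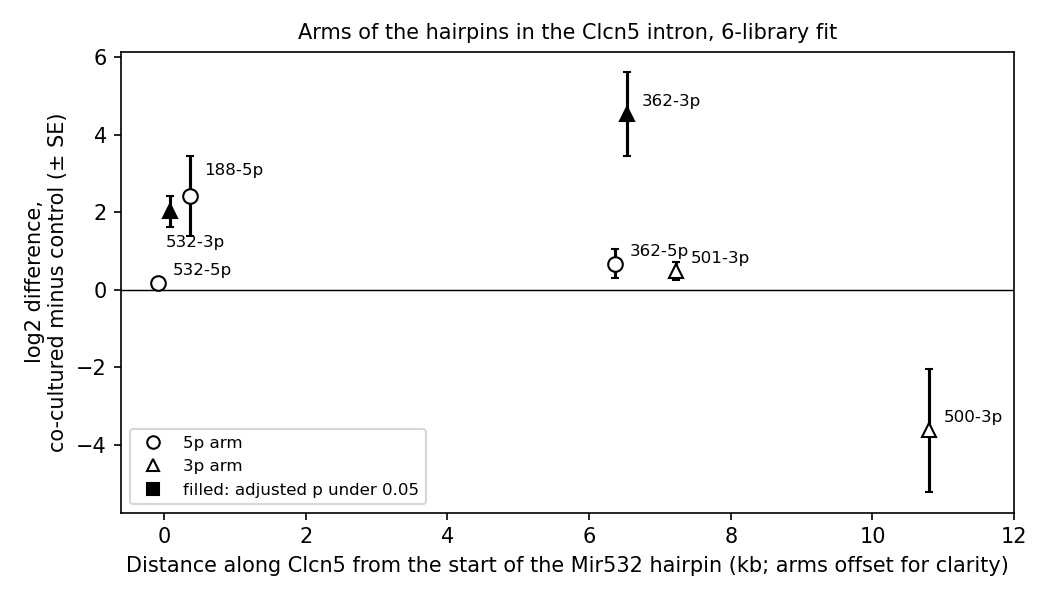
Fitted log2 difference (co-cultured minus control, ± SE, 6 libraries) of each tested arm against the distance of its hairpin along Clcn5 from the start of Mir532 in kb. Circles are 5p and triangles 3p arms, and filled symbols had an adjusted p under 0.05. miR-362-3p (4.53) and miR-532-3p (2.02) are filled, and miR-500-3p (-3.63) is the one arm below 0.

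miR-362-3p showed the widest gap of the Clcn5 arms. It had 54, 111 and 16 tags in co-cultured replicates 1 to 3, against 3, 2 and 0 in control replicates 1 to 3. The groups did not overlap, but the separate co-cultured libraries differed from each other by more than the control libraries did, at 14.9 ± 15.5 CPM in co-cultured and 0.504 ± 0.713 CPM in control (SD, n = 2 each). Its log2 difference was 4.53 (SE 1.08, adjusted p = 0.0297, edgeR) and 4.72 with the 4 libraries (SE 1.95, adjusted p = 0.367). The call was lost in all 3 limma fits (adjusted p = 0.0813 to 0.141), and leaving out co-cultured replicate 2 lowered the log2 difference to 3.79. The call ended when any single library other than co-cultured replicate 3 was left out, with adjusted p values of 0.0515 without control replicate 3, 0.0527 without control replicate 1, 0.0877 without co-cultured replicate 2, 0.109 without co-cultured replicate 1 and 0.115 without control replicate 2.

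Its partner miR-362-5p had 110, 154 and 69 tags in co-cultured replicates 1 to 3, against 58, 55 and 28 in control replicates 1 to 3. In CPM the groups overlapped, and the log2 difference of 0.67 did not pass (SE 0.373, adjusted p = 0.262, edgeR, and 0.735 with the 4 libraries). The 3p share of the Mir362 hairpin was 32.9%, 41.9% and 18.8% in co-cultured replicates 1 to 3, against 4.92%, 3.51% and 0% in control replicates 1 to 3. As at Mir532, the 3p share of every co-cultured library was above that of every control library. The 95% Wilson intervals of co-cultured replicate 3 (11.9% to 28.4%) and control replicate 1 (1.69% to 13.5%) met, and the 0 of 28 tags in control replicate 3 allowed up to 12.1%.

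**Figure D4:**
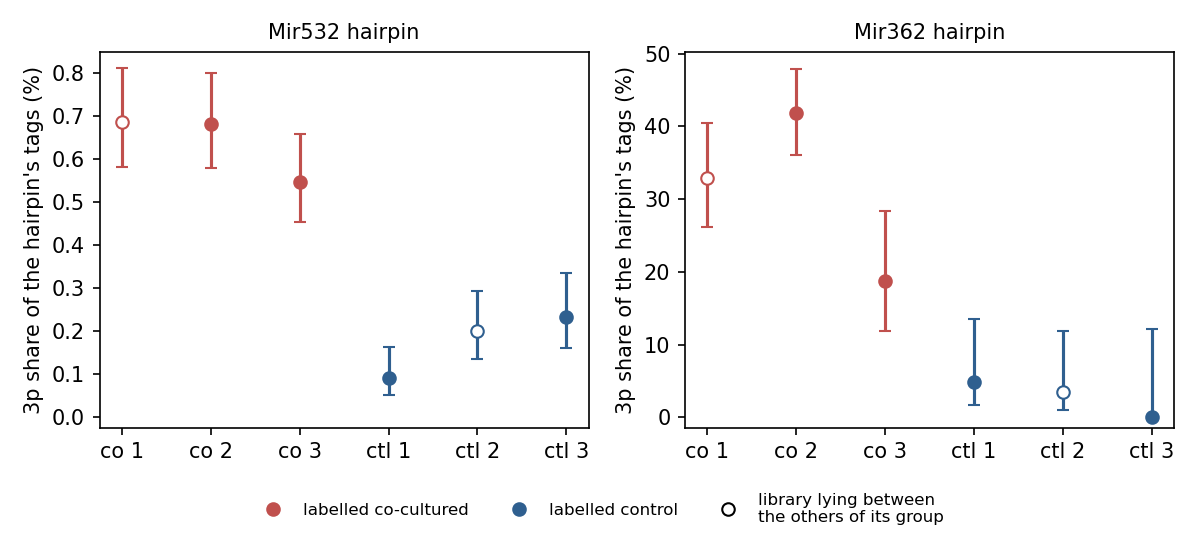
Share of a hairpin's tags that were the 3p arm (percent, y axis, a scale of its own in each panel) for Mir532 and Mir362 in co-cultured (co, red) and control (ctl, blue) replicates 1 to 3. Bars are 95% Wilson intervals for counting error, and open circles mark the libraries lying between the others of their group. Shares were 0.546% to 0.686% in co-cultured and 0.0917% to 0.232% in control libraries at Mir532, and 18.8% to 41.9% in co-cultured and 0% to 4.92% in control libraries at Mir362.

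The other Clcn5 arms gave no call. miR-501-3p had 143, 127 and 199 tags in co-cultured replicates 1 to 3, against 70, 78 and 78 in control replicates 1 to 3, a log2 difference of 0.47 (SE 0.233, adjusted p = 0.202, edgeR). miR-500-3p went the other way, with 0, 6 and 0 tags in co-cultured replicates 1 to 3, against 4, 13 and 33 in control replicates 1 to 3, and its log2 difference of -3.63 did not pass (SE 1.58, adjusted p = 0.162, edgeR). The miR-500-3p value was -2.61 without control replicate 3, and -7.37 (adjusted p = 0.0680) without co-cultured replicate 2, the only co-cultured library with a tag, which is no bound. With the 4 libraries the adjusted p values were 0.727 for miR-501-3p and 0.685 for miR-500-3p. These arms share the seed AUGCACC and their first 8 bases. miR-500-5p had 2 tags in all and miR-501-5p had 0, so neither was tested.

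miR-324-5p, which represses the Hedgehog factor Gli1 in human cells, was listed in the co-cultured libraries only. It had 38, 39 and 36 tags in co-cultured replicates 1 to 3, against 0, 0 and 0 in control replicates 1 to 3. The co-cultured libraries were nearly equal, at 8.93 ± 0.210 CPM in the separate ones (SD, n = 2). Against a floor of 3 tags in each control library, this was at least 8.26-fold higher in the separate co-cultured libraries. Over all 3 it was at least 8.39-fold higher. These bounds hold only if a 0 stands for no more than 3 tags, which the dropouts described below leave uncertain. edgeR gave an adjusted p = 0.00994 with 6 libraries and 0.327 with the 4, and DESeq2 gave 0.0773 with the 4. With no control tags, miR-324-5p entered these tests only through the co-cultured libraries. Without co-cultured replicate 1 alone the adjusted p was 0.0720. Its partner arm miR-324-3p had 4, 0 and 7 tags in the co-cultured libraries and 0 in each control library, too few to test, and made up 9.52%, 0% and 16.3% of the hairpin's tags in co-cultured replicates 1 to 3, the 0 allowing up to 8.97% by its Wilson interval.

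miR-101b-3p, whose family represses the histone methyltransferase Ezh2, had the same pattern at a lower level. It had 28, 16 and 27 tags in co-cultured replicates 1 to 3, against 0, 0 and 0 in control replicates 1 to 3. The separate co-cultured libraries averaged 5.15 ± 2.02 CPM (SD, n = 2), at least 4.77-fold above the same floor, and all 3 at least 5.31-fold. The same limit holds for these bounds. edgeR gave an adjusted p = 0.0172 with 6 libraries and 0.327 with the 4. miR-101b-3p too entered these tests only through the co-cultured libraries. The call was lost without co-cultured replicate 1 (adjusted p = 0.0897), without control replicate 2 (0.0749), with no filter on low counts (0.0653) and with limma at a pseudocount of 5 (0.0555). Its partner arm miR-101b-5p was not in the count table.

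A close relative bears on how miR-101b-3p is counted. miR-101a-3p shares with it a run of 15 bases that starts at base 2 of miR-101b-3p and at base 1 of miR-101a-3p, so that the seeds are offset by 1 base. It is shown with its seed in capitals, to set beside that of miR-101b-3p above.
miR-101a-3p: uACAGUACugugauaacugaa
miR-101a-3p had 520, 696 and 447 tags in co-cultured replicates 1 to 3, against 455, 493 and 525 in control replicates 1 to 3. In CPM the groups overlapped and the log2 difference of -0.41 did not pass (SE 0.172, adjusted p = 0.140, edgeR). With the 4 libraries the adjusted p was 0.628, and on 6 libraries it passed, as lower, with no filter (adjusted p = 0.0344) and with a replicate block (0.0199). Its counts stood far above those of miR-101b-3p in every library. The sources used here do not give the rule by which tags inside the shared run were assigned.

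A count of 0 in these libraries needs care. The lowest count listed above 0 was 2, and miRNAs at this level often dropped out between replicates. Of 96 miRBase-named sequences at 15 to 60 tags in co-cultured replicate 2, 31 (32.3%) were at 0 in co-cultured replicate 3, and 28.4% of those in replicate 3 were at 0 in replicate 2. Of 77 such sequences in control replicate 1, 29 (37.7%) were at 0 in control replicate 3, and in the reverse direction 16.2% were. Of 46 named sequences at that level in both separate co-cultured libraries, 4 were at 0 in all control libraries, namely miR-324-5p, miR-101b-3p, miR-196b-3p and miR-877-3p, the last pair named here after their values were seen. In the other direction, 2 of 31 named sequences at that level in both separate control libraries, let-7i-3p and miR-12194-3p, were at 0 in all co-cultured libraries.

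miR-3066-5p, the arm of the Nol10 hairpin, had 23, 15 and 32 tags in co-cultured replicates 1 to 3, against 0, 2 and 3 in control replicates 1 to 3. The groups did not overlap, but the control counts were at or under the floor of 3 tags. The separate libraries averaged 5.65 ± 3.05 CPM in co-cultured and 0.577 ± 0.815 CPM in control (SD, n = 2 each). Its log2 difference of 3.13 (SE 1.06) did not pass with 6 libraries (adjusted p = 0.0894, edgeR) or with 4 (3.25, SE 2.23, adjusted p = 0.648), and it passed with DESeq2 on 6 libraries (adjusted p = 0.0204).

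The opposite arm ran the other way. miR-3066-3p had 0, 4 and 0 tags in co-cultured replicates 1 to 3, against 58, 24 and 0 in control replicates 1 to 3. The control libraries themselves parted, since the 58 tags of replicate 1 faced 0 in replicate 3, and the groups overlapped at 0. Its log2 difference of -4.75 did not pass (SE 1.95, adjusted p = 0.136, edgeR, 6 libraries). It was -3.65 without control replicate 1, and -7.96 without co-cultured replicate 2, the only co-cultured library with a tag, which is no bound. With 4 libraries it was -4.33 (SE 2.91, adjusted p = 0.647). On the 6 libraries it passed with no filter (adjusted p = 0.0174), and without control replicate 3 it passed too (0.0433). In control replicate 1 all 58 tags of the hairpin were the 3p arm (95% Wilson interval 93.8% to 100%), whereas in co-cultured replicate 3 all 32 were the 5p arm (3p share 0%, interval up to 10.7%). In control replicate 3 the 3 tags of the hairpin were all the 5p arm, so the arm order was not the same in both separate control libraries.

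**Figure D5:**
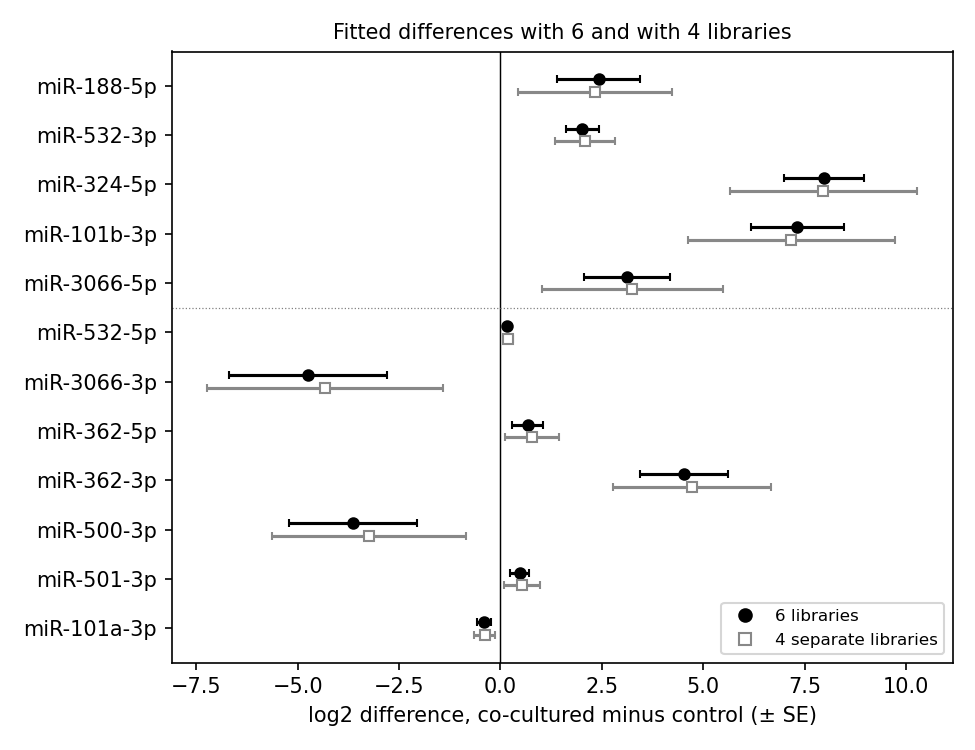
Fitted log2 difference (co-cultured minus control, x axis, ± SE) of the 5 miRNAs (above the dotted line) and of related arms, with 6 libraries (black circles) and the 4 separate libraries (open squares). The 5 miRNAs lie between 2.02 and 7.98 with 6 libraries, and the SEs are wider with 4 libraries. The values of miR-324-5p and miR-101b-3p, with 0 tags in every control library, depend on the prior count and are not bounds.

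Beside the model, an exact permutation test (two-sided, on log2 of CPM plus 1) gave p = 0.1 for each of the 5 with 6 libraries and p = 0.333 with the 4 separate libraries, the smallest values that 3 against 3 and 2 against 2 allow. Of the partner arms of these hairpins, 2 were tested, miR-532-5p and miR-3066-3p. edgeR called 0 of them with 6 libraries, where both had an unadjusted p under 0.05 (0.0298 and 0.0472) and DESeq2 called both (adjusted p = 0.0272 and 0.0441). No host mRNA was measured, so the levels of Clcn5, Dvl2, Rcl1 and Nol10 themselves are not known here.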

How the data were processed

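A commercial provider sequenced miRNA libraries of 6 mRTEC samples. Bowtie 0.12.2 and the builds mm8 and mm9 appear in the submitters' processing notes. The authors deposited raw tag counts per mature miRNA, and normalized tag counts rounded to whole numbers, which were treated as a score. The sources used here give no counting program, annotation or normalization method. In each library the raw count was a fixed multiple of the normalized value (5.466 to 7.966). The tables' fold changes and p-values are the authors' and were not used. No column lacked a sample. One emptied line was left out.

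Entries with one mature sequence were merged. Groups came from the sample labels. Counts were compared by edgeR 4.0.16 (TMM, quasi-likelihood test, two-sided, filterByExpr with a minimum count of 1 and total of 10, Benjamini-Hochberg over 393 sequences, threshold 0.05) in R 4.3.3, on 6 libraries as planned. Without co-cultured replicate 1 and control replicate 2 the same 393 sequences were fitted on 4 libraries, an alternative added after seeing the data. Other alternatives were DESeq2 1.42.0, library totals only, other filters, a replicate block, each library left out in turn, and limma 3.58.1 on log2 of the deposited score plus 1, 0.1 or 5. The edgeR fit was also run on simulated counts of independent libraries. That run could not show how the fit behaves with the in-between libraries found here. Shares have 95% Wilson intervals (scipy 1.17.1). Positions are those of GRCm38 (GENCODE M21, RefSeq).

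The members and lists were chosen with earlier results of these data known. Named miRNAs are the 5, their partner arms, the Clcn5 arms and seed relatives. The planned naming of the 3 miRNAs most correlated with each of the 5 was left out, since only 4 libraries were separate. miR-101a-3p was added for its shared run.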

Additional observations from a re-analysis of the deposited data

How the results depend on the processing

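Counts are of sequences at an adjusted p under 0.05 and, in order, over all sequences, those higher, those lower in the co-cultured libraries, among the 5 miRNAs and among the Clcn5 arms. The 6-library edgeR fit gave 89, 37, 52, 3 and 2. Leaving out 1 library at a time gave ranges of 16 to 76, 4 to 28, 11 to 48, 0 to 3 and 0 to 2, with the lowest values without co-cultured replicate 1 or control replicate 2. Without both of these, edgeR gave 1, 0, 1, 0 and 0 and DESeq2 gave 15, 6, 9, 0 and 0. DESeq2 on 6 libraries gave 106, 47, 59, 5 and 4. limma on the deposited values with a pseudocount of 1 gave 52, 22, 30, 3 and 2, with 0.1 it gave 68, 34, 34, 3 and 2, and with 5 it gave 48, 22, 26, 3 and 3. With no filter the 5 gave 2 calls. Scaling by library totals only moved the median of all sequences to 0.21, against 0.01 with TMM, and gave 51 higher and 37 lower sequences, with 3 calls among the 5 and 3 among the Clcn5 arms. All 13 tested named miRNAs kept their direction in the 205 values obtained under the alternatives. Fits that left out an in-between library could hardly have turned a direction, since it lay between the others. Of the 205 values, 166 stayed on the same side of the threshold, 26 lost a call and 13 gained one. The causes were not tested.

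With the replicate number as a block the counts were 90, 37, 53, 3 and 2. Same-numbered libraries did not deviate together (r = 0.0241, 0.0259 and 0.0569 for replicates 1 to 3), so the numbers were not taken to pair them. Replicates 1 and 2 could show little pairing, since each includes an in-between library, which deviates little from its group. At 0 to 3 tags, depth limits what miR-3066-5p, miR-324-5p and miR-101b-3p can show in the control libraries, and what miR-188-5p can show in control replicate 3.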

Other observations

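A 23-base sequence without a miRBase name equals miR-501-3p, of 22 bases, with 1 more base at its 3′ end, and the deposited table counts it apart. It had 296, 310 and 306 tags in co-cultured replicates 1 to 3, against 113, 119 and 129 in control replicates 1 to 3, above the counts of miR-501-3p itself in every library. In CPM the groups did not overlap, at 72.1 to 74.6 in co-cultured and 38.0 to 49.6 in control libraries. Its log2 difference was 0.75 (SE 0.131, adjusted p = 0.0109, edgeR) with 6 libraries and 0.74 with the 4 separate ones (SE 0.271, adjusted p = 0.327). The call was lost without co-cultured replicate 1 (adjusted p = 0.0677) and without control replicate 2 (0.0673). Both forms are shown with the shared seed in capitals.
miR-501-3p: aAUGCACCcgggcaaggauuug
23-base form: aAUGCACCcgggcaaggauuugg

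Over the whole table, 145 of the tested sequences equalled a RefSeq mature miRNA whose hairpin lies inside a protein-coding gene on the same strand. Sequences without such an entry, miR-532-5p among them, were not counted, so the list is incomplete. It includes the 5 miRNAs above, which were chosen for a listed difference. Of the 145, 15 rose and 15 fell in the 6-library edgeR fit, or 10.3% each way, beside 9.41% and 13.2% of all tested sequences. Their median log2 difference was 0.05. With the 4 separate libraries edgeR called 0 of the 145, with 9 higher and 9 lower at an unadjusted p under 0.05, beside 19 higher and 36 lower of all 393, and DESeq2 called 3 higher and 2 lower, beside 6 and 9 of all.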
